A study of Mus musculus with 80 samples.

Results

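The mitochondrial ribosomal protein genes encode the protein part of the ribosome inside mitochondria. They were taken as the protein-coding genes of the GENCODE annotation whose symbol begins with Mrpl or Mrps followed by a digit. Their mean had to be at least 1 CPM (read counts scaled to a common library total) over 80 libraries. This minimum used unadjusted totals, and the levels given below used TMM-adjusted totals. The rule gave 78 of the 56941 genes of the count table. All 78 were among the 15879 genes that passed the filter on low counts, and no gene that matched the symbol rule lay under 1 CPM. The lowest was Mrps18c at 5.42 CPM ± 1.58 (SD, n = 80). By the role of the protein, 51 genes belonged to the large subunit and 26 to the small subunit. Mrps36 carries the family's name, but its protein is a component of the 2-oxoglutarate dehydrogenase complex and lies outside the ribosome.

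RNA of the left ventricle of C57Bl/6J mice had been sequenced in 10 libraries for each of 8 groups, the male and the female set of 4 conditions. The sham groups had the Normal diet, the Sham field and 0 cGy (centigray, a unit of absorbed radiation dose), and the Western groups had the Western diet, the Sham field and 0 cGy. The mixed groups had the Normal diet and 50 cGy of the field labelled Mix, and the gamma groups had the Normal diet and 100 cGy of the field labelled Gamma. No age, no interval after exposure and no composition of the Mix field is in the labels, and nothing states that each library is 1 animal, so each p-value below measures the spread between libraries, which may be technical. The number in a library's title is 1 to 20 for replicates 1 to 5 of its group and 21 to 40 for replicates 6 to 10. These sets are called the first and the second run of title numbers here, since the labels do not say what separates them.

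Mitochondrial ribosomes translate the few messenger RNAs of mitochondrial DNA, whose products are membrane subunits of the respiratory chain and of ATP synthase. Their RNAs come from mitochondrial DNA, while every protein is encoded in the nucleus, made in the cytosol and imported. The large subunit forms the peptide bond, the small subunit decodes the messenger RNA, and heart muscle, which works almost wholly on oxidative metabolism, is rich in both.

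Total counts ran from 13484776 to 22143504 per library. The library labelled female gamma replicate 7 held 0.129 CPM of Xist, the RNA of the inactive X chromosome, against at least 102 CPM in the other female libraries, and, unlike a male library, no count of the Y-linked gene Ddx3y. The comparisons of female gamma with sham and with mixed, the gamma effect between the sexes and the counts of calls between the runs of title numbers are therefore also given without it. The 8 ventricular muscle markers summed to between 42235 and 70321 CPM per library, and none of them was at 0 in any group. Myl7, the atrial myosin light chain, passed 10 CPM in 20 libraries, 17 of them males of the first run and 3 of them males of the second. In such tissue RNA, fewer cells of a type and less RNA per cell cannot be told apart. The strand setting of the counting is not given in the sources used here, and 60 of the 78 genes share exon bases with another gene, 20 of them over at least 20% of their exon length.

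The promoters of the genes the results turn on are shown first, as genomic sequence before the annotated start of the canonical transcript (GRCm39, GENCODE vM39), read 5′ to 3′ on the gene's own strand. Where a neighbouring gene starts on the other strand close by, only the bases between the starts are given. Capitals mark matches to the NRF1 motif or to the ETS motif CCGGAAG on either strand. These motifs are named for nuclear respiratory factor 1 and for ETS-family factors such as GABP, which are known activators of nuclear genes for mitochondrial proteins. Mrpl45, whose protein sits at the exit of the peptide tunnel near the inner membrane, is shown for the 2 NRF1 matches in this stretch. Mrps22, Mrps18c, Mrpl10, Mrpl32, Mrpl43 and Mrps11 are shown because their transcripts differed between the runs of title numbers in females.
Mrpl45, chr11:97206417-97206541, plus strand: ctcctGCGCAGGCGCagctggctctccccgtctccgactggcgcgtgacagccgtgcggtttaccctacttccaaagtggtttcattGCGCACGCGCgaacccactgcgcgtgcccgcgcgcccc
Mrps22, chr9:98483721-98483845, minus strand: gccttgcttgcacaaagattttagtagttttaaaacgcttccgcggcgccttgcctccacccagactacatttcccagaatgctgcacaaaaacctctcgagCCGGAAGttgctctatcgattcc
Mrps18c, chr5:100946368-100946492, plus strand: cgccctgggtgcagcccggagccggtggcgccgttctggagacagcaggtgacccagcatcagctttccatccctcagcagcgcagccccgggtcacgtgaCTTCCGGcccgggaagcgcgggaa
Mrpl10, chr11:96932263-96932371, plus strand: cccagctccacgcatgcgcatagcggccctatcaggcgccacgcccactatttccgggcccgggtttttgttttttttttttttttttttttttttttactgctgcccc
Mrpl32, chr13:14787751-14787803, minus strand: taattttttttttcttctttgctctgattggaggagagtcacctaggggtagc
Mrpl43, chr19:44994882-44994936, minus strand: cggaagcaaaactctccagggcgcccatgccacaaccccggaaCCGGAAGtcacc
Mrps11, chr7:78432838-78432866, plus strand: ccatgaggcaacgcgggccggcgaggggc

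The Mrpl10 window lay between its start and that of Lrrc46, 110 bases apart, and held neither motif. Mrpl43 and Twnk, the helicase of mitochondrial DNA, started 56 bases apart on opposite strands. Mrpl32 and the proteasome subunit gene Psma2 started 54 bases apart, and Mrps11 and Mrpl46, a pair from both ribosomal subunits, started 30 bases apart. Such divergent starts within 1000 bases were found for 14 of the 78 genes (17.9%), against 5.08% of the 21603 protein-coding genes of the annotation. Another pair from mitochondrial translation was Mrps12 with Sars2, the mitochondrial seryl-tRNA synthetase gene, at 129 bases.

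Over windows of 300 bases, from 250 before the start to 50 from the start on, the ETS motif was in 24 of the 78 promoters (30.8%) and in 10.3% of all 21603. The NRF1 motif was in 12 (15.4%) against 5.85%, and the YY1 motif AAGATGGC in 6 (7.69%) against 2.48%. At least 1 of these 3 motifs was found in 36 of the 78 windows (46.2%) against 17% of all. Shares were closer for the SP1 motif GGGCGGG, at 35.9% against 31.1%, the CCAAT box, at 34.6% against 39.8%, and the E-box CACGTG, at 6.41% against 7.87%. The cyclic AMP response element TGACGTCA was in 2 windows (2.56% against 2.46%), and the ERR motif TCAAGGTCA in 0 against 0.477%. The median GC content of the windows was 57.5% against 54.3% over all, and no test was made of these shares, which describe letters and not bound factors. The 21603 genes, also where set beside the divergent starts, were not limited to genes that passed the filter on low counts. All 78 passed it, so the 2 sets are not matched by expression.

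The summed level of the 78 transcripts was 3614 CPM, of which the large subunit genes gave 2589 CPM and the small subunit genes 988 CPM. Per kilobase of merged exons, the highest was Mrpl34 at 88.1 CPM per kilobase ± 15.8 (SD, n = 80), followed by Mrps23 at 76.1 ± 9.05, Mrpl28 at 63 ± 9.69, the stalk protein gene Mrpl12 at 47.2 ± 7.97 and Mrpl51 at 31.2 ± 4.44. Of these, Mrpl34 shares 81.4% of its exon bases with Gm64263 on the opposite strand. Mrpl34 and Mrps23 overlapped in range over the libraries, and so did each other pair of neighbours among these 5.

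The lowest level was that of Mrpl33 at 0.547 CPM per kilobase ± 0.134 (SD, n = 80). Mrps18c stood at 1.3 ± 0.381, Mrps25 at 1.91 ± 0.262, Mrps10 at 2.18 ± 0.330 and Mrpl43 at 2.22 ± 0.427. Merged exons include those of rarely used transcripts, and per kilobase of the canonical transcript Mrpl33 reached 10.8 CPM, while Mrps18c was lowest at 1.46 and Mrpl42 was highest at 253. The median of the large subunit genes was above that of the small subunit genes on both scales, at 10.3 against 5.79 CPM per kilobase of merged exons and 24 against 13.5 per kilobase of canonical transcript. No test was made between the subunits.

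**Figure D1:**
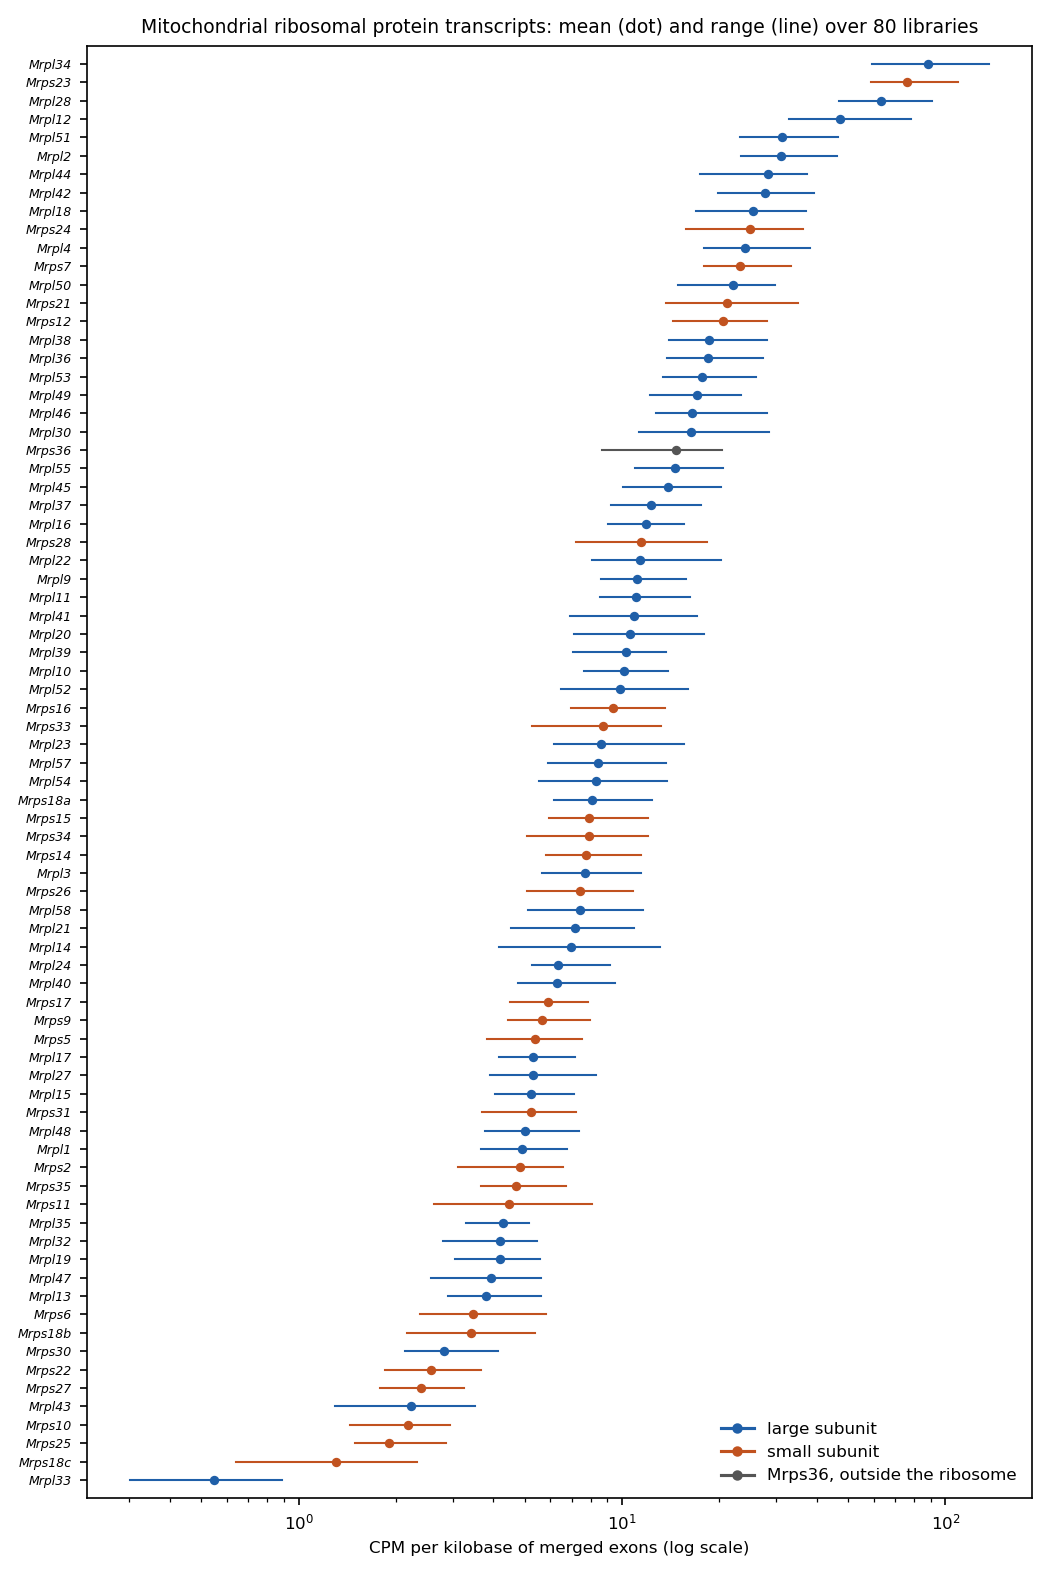
Level of each of the 78 genes in CPM per kilobase of merged exons on a log axis, with the mean (dot) and the range (line) over 80 libraries and the subunit by colour. The order runs from Mrpl34 at 88.1 down to Mrpl33 at 0.547 CPM per kilobase, and most neighbours have overlapping ranges.

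The 3 paralogues of bacterial S18 differed in level. Mrps18a, whose protein is built into the large subunit, stood at 8.07 CPM per kilobase of merged exons ± 1.26 (SD, n = 80). The small subunit paralogues were lower, Mrps18b at 3.41 ± 0.597 and Mrps18c at 1.3. Of these, Mrps18c shares 76.9% of its exon bases with Abraxas1 on the opposite strand. Mrps30, another gene of the large subunit in spite of its name, stood at 2.82 ± 0.402, and Mrps36 at 14.7 ± 2.38.

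Transcripts of the family moved together from library to library. After the mean of each group in each run of title numbers was removed, the median Pearson correlation of log2 CPM between 2 of the 78 genes over 80 libraries was 0.53, and 96.6% of pairs were positive. It was 0.54 within the large and 0.50 within the small subunit. The same median was 0.79 among 36 nuclear complex I subunit genes, 0.77 among 77 cytosolic ribosomal protein genes, 0.13 among 22 mitochondrial tRNA synthetase genes and 0.13 among 28 genes of mitochondrial ribosome assembly. Pairs drawn from all genes tested had a median of -0.0024. All these values share the libraries' depth, scaling and tissue composition, and they are descriptions.

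Mrpl11 followed the mean of the other 77 genes most closely (r = 0.924 over 80 libraries), then Mrpl51 (0.908) and Mrpl55 (0.902). The least close were Mrps18b (0.0428), Mrpl3 (0.145), Mrpl39 (0.176) and Mrpl10 (0.185). Within groups and runs, the median SD of log2 CPM was 0.188 for the 78 genes and 0.268 for all genes tested, which had a lower median level (11.7 against 36.9 CPM). It was smallest for Mrpl3 at 0.126, Mrpl37 at 0.128 and Mrpl10 at 0.129, and largest for Mrps18c at 0.326 and Mrps6 at 0.301. Mrpl3 and Mrpl10 were thus among the genes that moved least with the family and among those that varied least.

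The summed level of the family overlapped between all groups. In males it was 3729 CPM ± 288 (SD, n = 10) in sham, 3667 ± 172 in Western, 3865 ± 644 in mixed and 3623 ± 451 in gamma libraries. In females it was 3662 ± 317 in sham, 3501 ± 260 in Western, 3559 ± 451 in mixed and 3310 ± 241 in gamma libraries. Male mixed replicate 1 was the highest library at 4946 CPM and male gamma replicate 10 the lowest at 2893 CPM.

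**Figure D2:**
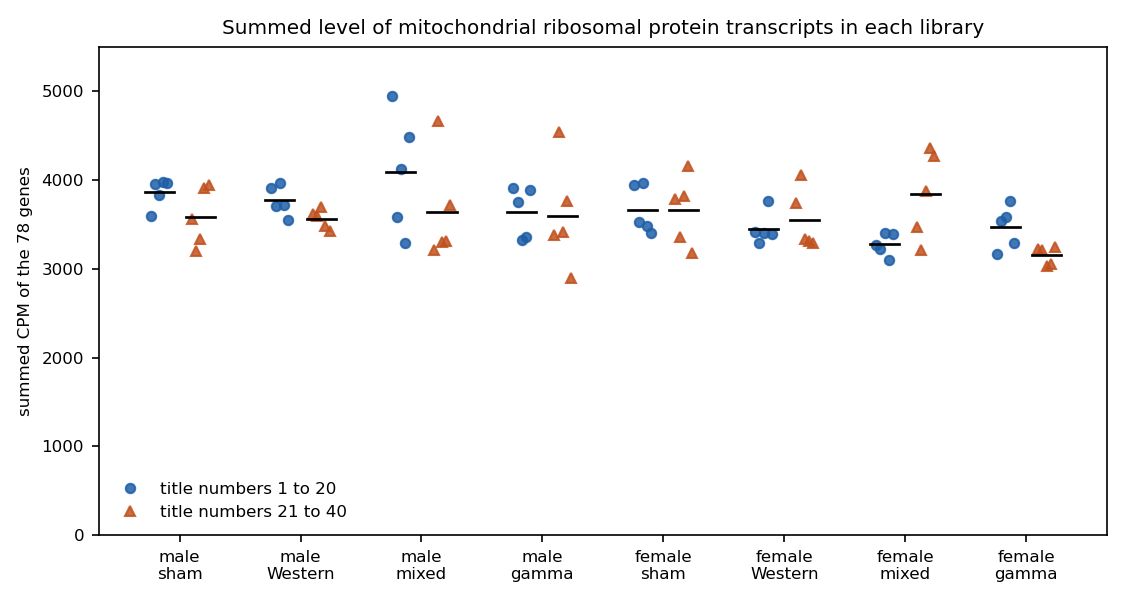
Summed CPM of the 78 genes in each of 80 libraries (points), by group and by run of title numbers (circles 1 to 20, triangles 21 to 40), with the mean of each set of 5 (bar). The female gamma libraries of the second run lie between 3035 and 3245 CPM, and the female mixed libraries have a mean of 3278 CPM in the first run and 3839 CPM in the second.

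Each diet or radiation group was compared with the sham group of the same sex by edgeR's quasi-likelihood test, with Benjamini-Hochberg adjustment over all 15879 genes and a call at an adjusted p under 0.05. None of the 78 genes was called in any of the 6 comparisons. Over all genes, 0.397% were called for male Western, 0.0693% for male mixed, 0.176% for male gamma, 0.0189% for female Western, 0% for female mixed and 0% for female gamma. At an unadjusted p under 0.05 the counts of the 78 were 4, 4, 1, 5, 5 and 23 in that order, where 12.8%, 8.17%, 5.43%, 7.39%, 6.47% and 10.3% of all genes lay under it. DESeq2 and limma voom also called 0 in each. The 95% interval of every log2 change lay inside a 1.5-fold change in either direction in all 6 comparisons. In each comparison the ranges of the treated and the sham group overlapped for all 78 genes. The share of all genes with overlapping ranges was not computed, so this count describes the 78 without a background.

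With the Western diet in males, the median log2 change of the 78 genes was -0.01, and 49 had a negative sign. Without male Western replicate 7 it was 0.00188. The smallest p was that of Mrps22, a small subunit protein gene without a bacterial counterpart. Its level was 12.6, 15.5 and 18.4 CPM (lowest, median, highest of 10) in Western males and 12.8, 18.9 and 22 CPM in sham males. All 10 Western libraries lay under the sham median, though the ranges overlapped, and the log2 change was -0.26 ± 0.10 (SE, adjusted p = 0.237, edgeR). Mrpl34, the counterpart of bacterial L34, had 53.1 CPM ± 7.03 (SD, n = 10) against 63.6 ± 9.67, also with 10 of 10 under the sham median, and a log2 change of -0.26 ± 0.10. Mrps2, a small subunit gene with a bacterial counterpart, had a log2 change of -0.18 ± 0.08. In Western females the median was -0.05, with 65 negative signs. Mrpl44, whose protein resembles RNase III, stood at 38, 42 and 49.4 CPM in Western and at 41.5, 49 and 55.4 CPM in sham females. In 9 of 10 Western libraries it lay under the sham median, with a log2 change of -0.18 ± 0.07 (adjusted p = 0.601, edgeR). Mrpl37 and Mrps27 each had a log2 change of -0.16 in Western females.

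With the mixed field in males, the median log2 change was 0.05, and 57 of 78 signs were positive. Without male mixed replicate 1 it was -0.00293, with 42 negative signs. Mrpl9, a large subunit gene with a bacterial counterpart, stood at 43, 48.6 and 66.9 CPM in mixed and at 40.5, 45.7 and 54 CPM in sham males. The mixed range reached higher and the ranges overlapped, with a log2 change of 0.16 ± 0.08 (SE, adjusted p = 0.580, edgeR). Mrps24 had a log2 change of 0.22 ± 0.11 and Mrps23 one of 0.14 ± 0.07. In mixed females the median was -0.04 with 51 negative signs. It was -0.17 with 76 negative signs within the first run of title numbers and 0.07 with 25 negative signs within the second, with 0 called in either. Mrpl44 stood at 28.7, 44 and 47.4 CPM in mixed females, all 10 of which lay under the sham median of 49 CPM, and its log2 change was -0.20 ± 0.07 (adjusted p = 0.727, edgeR). The lowest of these values, in replicate 10, lay well apart from the next at 39.2 CPM. Mrpl18 and Mrpl19 had log2 changes of -0.18 ± 0.08 and -0.16 ± 0.08.

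With gamma radiation in males, the median log2 change was -0.04, and 61 of 78 signs were negative. Without male gamma replicate 10 it was 0.000912 with 36 negative signs, and without male gamma replicate 7 it was -0.0851. Within the first run of title numbers it was -0.0882, and within the second 0.000554. Mrps34, a mitochondria-specific small subunit gene, stood at 13.4, 17.6 and 22.4 CPM in gamma and at 14.3, 21.2 and 26.6 CPM in sham males. The ranges overlapped over most of their length, with a log2 change of -0.23 ± 0.11 (SE, adjusted p = 0.864, edgeR). Of its exon bases, 62.6% overlap Mapk8ip3 on the opposite strand and 47.8% overlap Nme3 on the same strand. Mrpl47 and Mrpl35 had log2 changes of -0.18 ± 0.10 and -0.12 ± 0.07.

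Gamma radiation in females gave the lowest median of the 6 comparisons, -0.14 against -0.00328 over all genes tested. Of the 78 genes, 76 had a negative sign, 50 of 51 in the large and 25 of 26 in the small subunit, with Mrps36 at -0.25. Since the transcripts moved together between libraries, these signs are not 76 separate observations. At an unadjusted p under 0.05 there were 23 of 78 (29.5%), all lower, against 10.3% of all genes, and none was called. Mrps27, a small subunit protein with pentatricopeptide repeats, had the smallest p. It stood at 21.2, 23.5 and 27.8 CPM in gamma and at 23.4, 29.1 and 30.5 CPM in sham females. All 10 gamma libraries lay under the sham median, with a log2 change of -0.22 ± 0.08 (SE, adjusted p = 0.381, edgeR). Mrpl34 stood at 50.8 CPM ± 6.32 (SD, n = 10) against 61.7 ± 7.87, a log2 change of -0.28 ± 0.10. Mrps12, the decoding-centre protein gene that starts opposite Sars2, stood at 27.6 CPM ± 3.03 against 32.4 ± 3.75, with 10 of 10 under the sham median and a log2 change of -0.23 ± 0.08.

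Without the library labelled female gamma replicate 7, the median was -0.13 with 75 negative signs and 16 of 78 under an unadjusted p of 0.05. The median was -0.09 within the first and -0.20 within the second run of title numbers. Nuclear genes for complex I subunits of the respiratory chain had a like sign in this comparison, 35 of 36 of them, with a median of -0.17. The 13 messenger RNAs of mitochondrial DNA had a median of 0.16 with 10 positive signs. Medians were closer to 0 for 15 mitochondrial translation factor genes (-0.04), 22 mitochondrial tRNA synthetase genes (-0.04) and 28 assembly genes (-0.06), and no gene of these lists was called. The summed level of the 8 ventricular muscle markers ran from 50296 to 62540 CPM in gamma and from 53958 to 66962 CPM in sham females, none of them at 0, and its part in the result was not tested. The log2 change in female gamma fell with the GC content of the transcript (Spearman's rho = -0.29 over 15814 genes and -0.37 over the 78), and with offsets that remove the GC trend of each library the median of the 78 was -0.15 with 78 negative signs and 0 called.

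**Figure D3:**
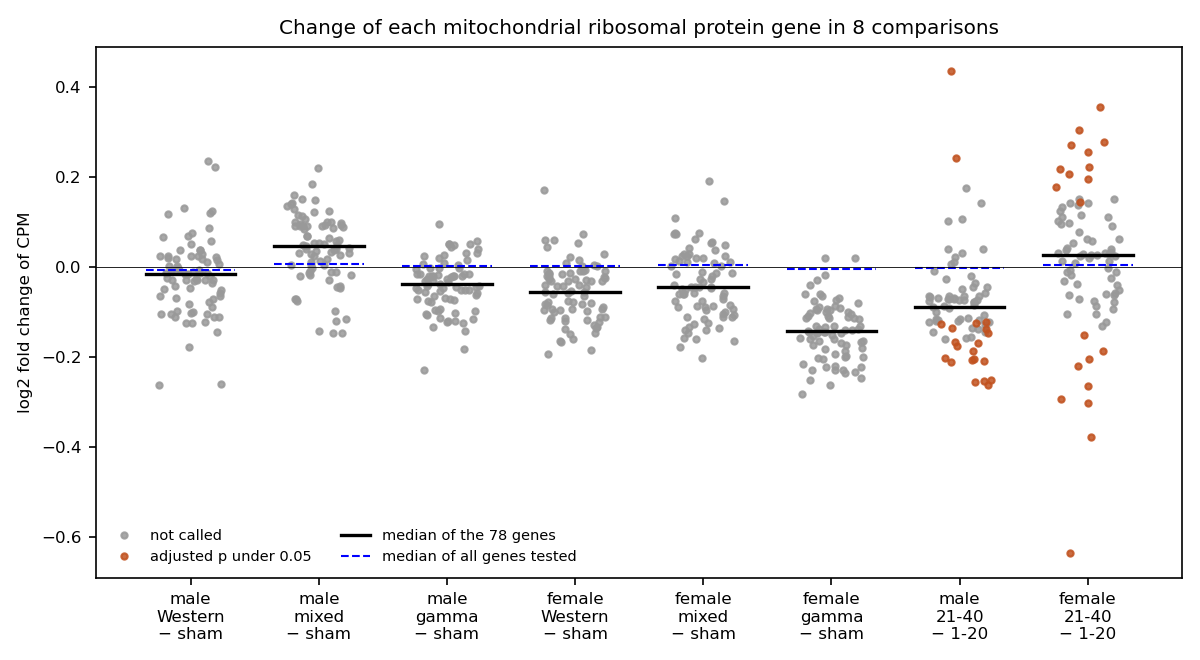
Log2 fold change of each of the 78 genes (points, orange where the adjusted p was under 0.05) in the 6 comparisons with sham and in the comparison of title numbers 21-40 with 1-20 in each sex; bars give the median of the 78 and dashed lines that of all genes tested. None is orange in the 6 comparisons with sham, where the medians run from -0.14 in female gamma to 0.05 in male mixed, while 21 are orange in males and 20 in females between the runs.

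Mixed field and gamma radiation were also compared with each other, at 50 and 100 cGy, so field and dose cannot be told apart. None of the 78 genes was called in males (0.573% of all genes called) or in females (0.0252%), by edgeR, DESeq2 or limma voom. At an unadjusted p under 0.05 there were 6 of 78 in males (8.89% of all genes) and 15 of 78 in females (14% of all genes). The median log2 difference, mixed minus gamma, was 0.09 in males and 0.10 in females. In males Mrpl10 had the smallest p, at 35.1 CPM ± 5.47 (SD, n = 10) in mixed and 30.9 ± 2.60 in gamma libraries, a log2 difference of 0.18 ± 0.08, ahead of Mrps24 (0.24 ± 0.11) and Mrpl3 (0.13 ± 0.06). In females the smallest p values belonged to Mrpl38 (59.2 CPM ± 10.4 against 49.9 ± 2.75, a log2 difference of 0.25 ± 0.08), Mrpl4 (0.27 ± 0.09) and Mrps27 (0.21 ± 0.08). The female groups overlapped for all 3 genes. Without the library labelled female gamma replicate 7, the female median was 0.09 with 0 called. By run, the female median was -0.07 in the first with 0 called and 0.27 in the second, where 8 of 78 genes were called higher with the mixed field and 2.66% of all genes were called.

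The treatment effects did not differ detectably between the sexes for any of the 78 genes. None was called for the difference in the Western (0.447% of all genes called), mixed (0.0315%) or gamma effect (0%), with 2, 5 and 0 of 78 at an unadjusted p under 0.05 (9.24%, 9% and 5.38% of all genes), and DESeq2 and limma voom called none either. The medians, male minus female, were 0.03, 0.08 and 0.11. That of the mixed effect was 0.26 within the first run of title numbers and -0.0724 within the second, and that of the gamma effect was 0.02 and 0.20. Without the library labelled female gamma replicate 7, the gamma median was 0.10 with 0 called. The smallest p values belonged to Mrpl43 for the Western effect (0.35 ± 0.16), to Mrps23 for the mixed effect (0.28 ± 0.10) and to Mrpl57 for the gamma effect (0.27 ± 0.14). Between sham males and sham females none was called either, against 1.2% of all genes, with 7 of 78 at an unadjusted p under 0.05 in edgeR (11.9% of all genes), and none by DESeq2 or limma voom. Mrpl47, a large subunit gene with a bacterial counterpart, stood at 17.8, 22.8 and 26.3 CPM (lowest, median, highest of 10) in sham males and at 15.3, 18.3 and 21.7 CPM in sham females. The log2 difference was 0.27 ± 0.10 (adjusted p = 0.193, edgeR), and 9 of 10 males lay over the female median. Mrpl37 had a log2 difference of -0.16 ± 0.07 and Mrps10 one of 0.21 ± 0.09. Within the second run of title numbers alone 2 of 78 were called, and 3.67% of all genes.

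A difference of a treatment effect between the runs of title numbers was called for 1 of the 78 genes. This share (1.28%) was near that of all genes (1.39%). For Mrps28 (chromosome 3, 8865093 to 8988978, minus strand), a small subunit protein gene with a bacterial counterpart, the mixed effect in females was 0.77 ± 0.20 higher on the log2 scale in the second run (adjusted p = 0.0394, edgeR; 1.39% of all genes called). Female mixed libraries of the first run held 31.1, 29.1, 25, 27.1 and 33.6 CPM, and sham libraries of that run 42.3, 35.8, 38.5, 35.5 and 39.3 CPM. In the second run, female mixed libraries held 38, 33, 47.4, 46.9 and 58.4 CPM, and sham libraries 38.4, 29, 36.7, 40.3 and 26.8 CPM. Mixed libraries all lay under the sham libraries in the first run, and reached above them in the second, where the ranges overlapped. The call of Mrps28 was lost in 10 of the 20 fits that left out 1 library (female mixed replicate 1, 3, 4, 8, 9 or 10, or female sham replicate 1, 3, 7 or 10), with adjusted p up to 0.176. Without female sham replicate 5 or 9 there were 2 calls among the 78 (1.08% and 0.976% of all genes). Without female mixed replicate 6 or 7 there were 3 (1.7% and 3.61% of all genes), as with DESeq2 (2.1% of all genes), which added Mrps15 (adjusted p = 0.0444) and Mrpl23 (adjusted p = 0.0463). Of the 78 genes, 71 had a positive difference between the runs in this effect, with a median of 0.24. At an unadjusted p under 0.05 there were 20 of the 78 (25.6%), 19 higher and 1 lower, against 17.1% of all genes. These are not separate observations, since the transcripts moved together between libraries. In the other 5 treatment effects 0 of the 78 were called for a difference between the runs (by edgeR, DESeq2 and limma voom), where 0.0315% of all genes were called for male Western, 0.0252% for male mixed and 0% for male gamma, female Western and female gamma. At an unadjusted p under 0.05 there were 1, 2, 2, 0 and 1 of the 78 in that order, and 13.6%, 7.87%, 3.45%, 3.05% and 3.47% of all genes.

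Title numbers 21-40 were compared with 1-20 in each sex, with 20 libraries in each run and the 4 groups weighted equally. In males 21 of the 78 genes were called, 2 higher and 19 lower in the second run. Over all genes 29.8% were called, 17% higher and 12.8% lower, so the share called of the 78 (26.9%) was near the background, while lower calls made up most of it. The median log2 change of the 78 was -0.09 with 66 negative signs, against -0.00226 over all genes. In the large subunit 1 gene was called higher and 15 lower, and in the small subunit 1 higher and 4 lower.

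Among the lower genes in males was the stalk base protein gene Mrpl10 (chromosome 11, 96932369 to 96940044, plus strand). It stood at 26.7, 29.2 and 34.9 CPM (lowest, median, highest of 20) in the second and at 28.7, 34.6 and 44.6 CPM in the first run. Its log2 change was -0.20 ± 0.04 (SE, adjusted p = 0.000142, edgeR), with 19 of 20 libraries under the first run's median. Gm11574, on the opposite strand, overlaps 36.6% of the exon bases of Mrpl10. Mrpl9 (chromosome 3, 94350594 to 94358437, plus strand) fell from 53 CPM ± 6.75 (SD, n = 20) to 44.4 ± 3.80, a log2 change of -0.25 ± 0.04 (adjusted p = 7.74e-06, edgeR). Mrpl49 and Mrps31 fell from 37 to 31 CPM and from 36.8 to 30.9 CPM, and Mrpl39 from 62.1 to 53.7 CPM. The ranges of the 2 runs overlapped for each of these genes. Others called lower included Mrps28, Mrpl12 of the stalk, Mrpl2 of the peptidyl transferase region, Mrpl45 at the tunnel exit, Mrps22 and Mrps35.

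Higher in males were Mrpl33 and Mrps18b. Mrpl33 (chromosome 5, 31754279 to 31837542, plus strand), the counterpart of bacterial L33, stood at 6.49, 8.94 and 12.9 CPM in the second and at 4.35, 6.73 and 10.3 CPM in the first run. Its log2 change was 0.44 ± 0.09 (adjusted p = 0.000152, edgeR), with 19 of 20 libraries over the first run's median. Mrps18b rose from 9.85 CPM ± 2.10 (SD, n = 20) to 11.7 ± 2.14, a log2 change of 0.24 ± 0.08 (adjusted p = 0.0118, edgeR). Of its exon bases, 29.3% overlap Gm16279 on the opposite strand.

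In females 20 of the 78 genes were called, 11 higher and 9 lower in the second run, where 24% of all genes were called, 11.9% higher and 12.1% lower. The share of the 78 (25.6%) was again near the background. The median log2 change was 0.03 with 46 positive signs, and it was -0.0114 with 41 negative signs without female mixed replicate 10. In the large subunit 9 genes were called higher and 5 lower, and in the small subunit 2 higher and 4 lower.

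Mrpl10, lower in the second run in males, was higher in females. It stood at 29.5, 36.1 and 40.8 CPM (lowest, median, highest of 20) in the second and at 24.4, 30.1 and 34.5 CPM in the first run. Its log2 change was 0.26 ± 0.04 (SE, adjusted p = 3.92e-06, edgeR), and 18 of 20 libraries lay over the first run's median. Mrpl4, a protein gene of the tunnel wall, rose from 89.4 CPM ± 8.79 (SD, n = 20) to 109 ± 19.5, and Mrpl28 from 95.2 ± 11.4 to 111 ± 17.6. Mrpl43, which starts opposite Twnk and shares 28.6% of its exon bases with it, rose from 8.21 CPM ± 1.36 to 10.1 ± 1.42, a log2 change of 0.30 ± 0.07. Mrps11, which starts opposite Mrpl46, rose from 11.9 CPM ± 1.64 to 15.3 ± 3.64, a log2 change of 0.36 ± 0.09. The other genes called higher were Mrpl14, Mrpl23, Mrpl2, Mrpl38, Mrps7 and Mrpl37.

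The 2 largest changes in females were of lower genes, Mrps18c and Mrpl32. Mrps18c (chromosome 5, 100946493 to 100955417, plus strand) stood at 2.66, 3.66 and 5.36 CPM in the second and at 3.01, 5.46 and 9.68 CPM in the first run. All 20 libraries of the second run lay under the first run's median, and the log2 change was -0.64 ± 0.10 (adjusted p = 3.01e-06, edgeR). Mrpl32 (chromosome 13, 14782769 to 14787750, minus strand), whose precursor is cut by the m-AAA protease before it joins the ribosome, stood at 13.9, 16.8 and 21.1 CPM in the second and at 15.9, 21.4 and 27 CPM in the first run. Again 20 of 20 libraries lay under the first run's median, with a log2 change of -0.38 ± 0.06 (adjusted p = 3.07e-07, edgeR). Mrps22 fell from 17.2 to 14 CPM, Mrps33 from 29.7 to 24.8 CPM and Mrpl50 from 55.4 to 48.7 CPM (means of 20 libraries). The ranges of the runs overlapped for each gene named. Mrpl33, Mrps21, Mrpl30 and Mrpl35 were also called lower.

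The change between the runs was tested for a difference between the sexes. It was called for 26 of the 78 genes (33.3%, against 26.9% of all genes), 5 with a higher and 21 with a lower value in males than in females. Over all genes, 14.6% were called higher and 12.3% lower. The largest negative difference was that of Mrpl10, -0.46 ± 0.06 (SE, adjusted p = 2.6e-08, edgeR), and Mrpl9 (-0.36 ± 0.06), Mrpl4 (-0.39 ± 0.08), Mrpl49 (-0.32 ± 0.06) and Mrpl2 (-0.38 ± 0.08) followed by p. The positive differences were those of Mrps18c (0.81 ± 0.14), Mrpl33 (0.74 ± 0.13), Mrpl32 (0.33 ± 0.08), Mrpl30 (0.31 ± 0.09) and Mrps18b (0.28 ± 0.11). Without the library labelled female gamma replicate 7, 19 of the 21 calls in males, 19 of the 20 in females and 25 of the 26 for the difference were kept. The call of Mrps18b was lost in 28 of 80 fits that left out 1 library each, with adjusted p up to 0.0705.

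Called in both sexes were 6 genes. They are 28.6% of the male calls, near the 25.6% of all 78 genes called in females. They are 30% of the female calls, near the 26.9% of all 78 called in males. Mrps22, Mrpl50 and Mrpl35 were lower in the second run in both. Reep1, on the opposite strand, overlaps 31.5% of the exon bases of Mrpl35. Mrpl10 and Mrpl2 were lower in males and higher in females, and Mrpl33 was higher in males and lower in females. Males and females share no library. The labels do not say what separates the runs, so the contrast of title numbers may not be the same in both sexes.

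**Figure D4:**
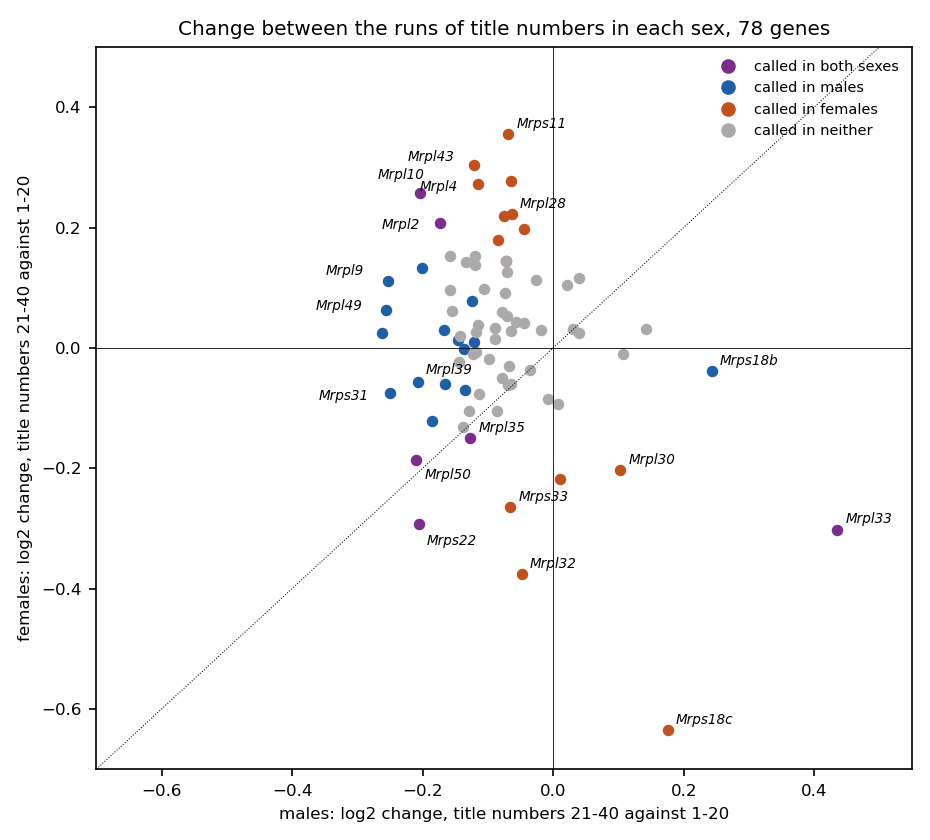
Log2 change from title numbers 1-20 to 21-40 in males (horizontal) and females (vertical) for each of the 78 genes, coloured by the sexes in which it was called; the dotted line marks equal change. Mrpl10 lies at -0.20 and 0.26, Mrpl33 at 0.44 and -0.30, and 6 genes were called in both sexes.

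The change in females followed the GC content of the transcripts. Spearman's rho between the log2 change and the GC content of the canonical transcript was 0.33 over 15814 genes and 0.45 over the 78 in females, and 0.04 and 0.13 in males. Among the 26 of the 78 genes with the lowest GC content (39.6% to 47.1%), 0 were called higher and 7 lower in females. Among the 26 with the highest (52.4% to 60.8%), 9 were called higher and 1 lower. In males the counts were 1 higher and 9 lower in the lowest set and 1 and 3 in the highest. With offsets that remove the GC trend of each library, 16 of 78 were called in females (19.1% of all genes), 9 of them among the 20 above. In males 25 were called (32.1% of all genes), 19 of them among the 21 above. Mrpl32, Mrps18c, Mrpl10 and Mrpl4 were still called in females, and Mrpl28, Mrps33 and Mrpl50 were not.

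**Figure D5:**
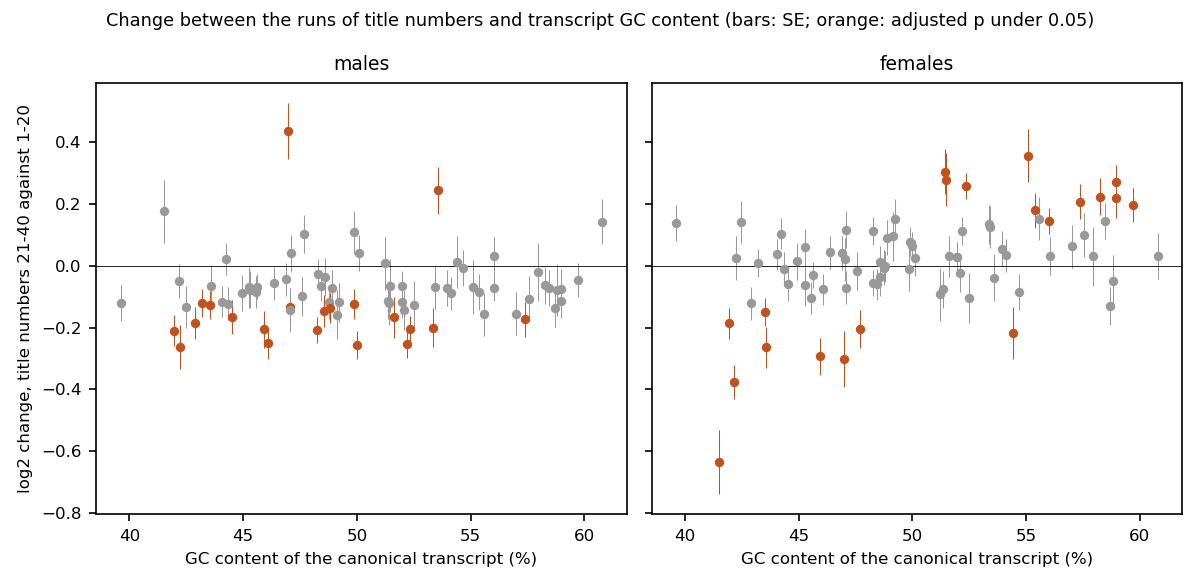
Log2 change from title numbers 1-20 to 21-40 against the GC content (percent) of the canonical transcript for each of the 78 genes, in males and females; bars are SE and orange marks an adjusted p under 0.05. In females 0 genes of the lowest GC set (39.6% to 47.1%) were called higher and 7 lower. In the middle set 2 were called higher and 1 lower, and in the highest (52.4% to 60.8%) 9 and 1. In males the counts were 1 and 9 in the lowest, 0 and 7 in the middle and 1 and 3 in the highest set.

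Other values moved with the runs. Rn18s-rs5, a copy of cytosolic ribosomal RNA that poly-A selection should remove, took 2.95% ± 1.5 (SD, n = 20) of the counts in females of the first run and 0.530% ± 0.115 in the second. In males it took 0.838% ± 0.794 and 1.95% ± 0.615. It also differed between the groups of the first run of males. The sham libraries held 1.95%, 1.58%, 1.63%, 1.79% and 0.293%, and the Western libraries 0.178% to 0.419%. Mixed libraries ran from 0.163% to 1.63% and gamma libraries from 0.161% to 2.26%. The comparisons with sham were not fitted with a term for Rn18s-rs5, so its part in them was not tested. With its log2 share as a term in the fit, 3 of the 78 genes were called in males (6.66% of all genes), 12 in females (25.7%) and 2 for the difference (3.33%). Without male gamma replicate 10, 14 of the 78 were called in males, and 27.7% of all genes. In males 4 of 7 atrial markers were lower and 1 higher in the second run, with a summed level of 430 to 2257 CPM in the first and 462 to 4132 CPM in the second. Of 8 fibroblast markers 6 were lower, at 1683 to 3555 CPM against 1081 to 2293 CPM, and of 6 erythroid markers 1 was higher, at 71.2 to 1241 CPM against 68.6 to 1463 CPM. All 3 of the 6 adipocyte markers that passed the filter were lower, with a summed level of the list of 0.245 to 16.3 CPM in the first and 0 to 17.8 CPM in the second run. No atrial, fibroblast or erythroid marker was at 0 in either run. In females 0 atrial, 0 erythroid and 1 of 8 fibroblast markers were called. Over all genes, 29.8% were called between the runs in males and 24% in females. The part of these cells in the run comparison of males was not tested.

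In males the RNAs of the mitochondrial ribosome changed more between the runs than any of the 78 messages for its proteins. There mt-Rnr1, the small subunit RNA, had a median of 201 CPM in the first and 2698 CPM in the second run, a log2 change of 1.67 ± 0.32 (SE, adjusted p = 3.49e-05, edgeR). The large subunit RNA mt-Rnr2 had 272 and 5146 CPM, a change of 1.89 ± 0.31 (adjusted p = 2.96e-06, edgeR). These log2 changes come from the fitted group levels and not from the medians. Summed, the 2 RNAs ran from 275 to 9067 CPM in males of the first run and from 4659 to 10590 CPM in the second. The runs thus overlapped. In females neither was called, with log2 changes of -0.62 ± 0.31 for mt-Rnr1 and -0.39 ± 0.31 for mt-Rnr2, and the difference between the sexes was called for both (2.29 and 2.28). Of the 13 messenger RNAs of mitochondrial DNA, 9 were called higher in females (median 0.38), where 11.9% of all genes were. In males 6 were called lower (median -0.18), where 12.8% of all genes were. Since the libraries were poly-A selected, these RNAs are counted only as far as that selection kept them.

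Among the other proteins of mitochondrial translation, 5 further ribosomal proteins with other names (Dap3, Chchd1, Aurkaip1, Ptcd3 and Gadd45gip1) had 0 calls between the runs in either sex by edgeR, with 2 at an unadjusted p under 0.05 in males and 0 in females. Between the runs, 17% of all genes were called higher and 12.8% lower in males, and 11.9% and 12.1% in females. An unadjusted p under 0.05 was found for 40% of all genes in males and 35.5% in females. Of 15 translation factor genes 7 were called lower and 0 higher in males. They were led by the initiation factor gene Mtif3 (-0.27 ± 0.06), the ribosome recycling factor gene Mrrf (-0.20 ± 0.04) and the rescue factor gene Mtrfr (-0.23 ± 0.05). In females 3 were higher and 4 lower, led by Oxa1l, the membrane insertase that docks at the tunnel exit (0.18 ± 0.04), the elongation factor gene Tsfm (0.21 ± 0.05) and the initiation factor gene Mtif2 (-0.16 ± 0.04). Oxa1l was lower in males at -0.16 ± 0.04, so it differed between the sexes in the same sense as Mrpl10 (-0.34 ± 0.05, adjusted p = 1.68e-06, edgeR). Tufm, the other elongation factor, was called in neither sex (0.11 in females, -0.07 in males), while its difference was called (-0.18 ± 0.07).

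Of 28 assembly genes 2 were higher and 7 lower in males (29.8% of all genes called) and 4 higher and 2 lower in females (24%). Nsun4, a methyltransferase of the ribosomal RNA, led in males at -0.17 ± 0.04, and Rcc1l, an assembly factor, led in females at 0.28 ± 0.05 and was lower in males at -0.17 ± 0.05. Of 22 mitochondrial tRNA synthetase genes 1 was higher and 6 lower in males, and 5 were higher and 1 lower in females. Lars2, the leucyl synthetase gene, changed by 1.66 ± 0.27 in males and by -1.90 ± 0.27 in females, far beyond any of the 78. Its level was 220 CPM and 1569 CPM (medians of 20) in the first and second run of males and 2445 and 503 CPM in females. These medians were high and low in the same sets of libraries as Rn18s-rs5. Summed over the 22 genes, the level ran from 782 to 2717 CPM in the first and 1567 to 3340 CPM in the second run of males. In females it ran from 774 to 4096 and from 1143 to 1527 CPM, so the summed ranges of the runs overlapped in both sexes.

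Of 17 genes of mitochondrial transcription and RNA processing 0 were higher and 4 lower in males, and 4 were higher and 3 lower in females. Trmt10c, a subunit of mitochondrial RNase P, was lower in both sexes, at -0.25 ± 0.06 in males and -0.31 ± 0.06 in females. Fastk was lower in males (-0.14 ± 0.04) and higher in females (0.21 ± 0.04). Tfam, which packages mitochondrial DNA and starts its transcription, had changes of -0.10 ± 0.04 and -0.11 ± 0.04 in males and females and was called in neither. Polrmt, the mitochondrial RNA polymerase gene, was called higher in females (0.16 ± 0.05, adjusted p = 0.0153, edgeR) and not in males (0.08 ± 0.05). Of 13 genes that regulate mitochondrial biogenesis 2 were higher and 1 lower in males, and 1 was higher and 4 were lower in females. Of 17 genes of the mitochondrial stress response 2 were higher and 1 lower in males, and 5 were higher and 1 lower in females. Of the 36 nuclear complex I subunit genes 1 was higher and 5 lower in males, and 5 were higher and 6 lower in females. The counts of all these lists stand beside 29.8% of all genes called in males and 24% in females.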

How the data were processed

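Each library was made from poly-A selected RNA with the NEBNext Ultra II kit, per the labels' protocols. The deposited values are whole-number read counts per Ensembl gene; the authors aligned reads with STAR 2.7.8a after FastQC 0.11.9 on GRCm39, per the submitters' processing notes, and for the counting tool, annotation and strand setting the sources used here give nothing. Totals of 13484776 to 22143504 counts per library set the precision, and none of the table's columns lacked a sample.

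Of 56941 gene IDs, 56323 matched GENCODE vM39, which gave symbols, exons and promoters. The members and gene lists were chosen with earlier results of these data known. Genes passing edgeR's filterByExpr were scaled by TMM and fitted by edgeR 4.0.16 (quasi-likelihood, R 4.3.3) over all 80 libraries, with 8 groups for the treatment comparisons and 16 groups by run for the run comparisons; p-values were adjusted by Benjamini-Hochberg over 15879 genes and called under 0.05. CPM used TMM library sizes, except in the minimum of the member rule. Correlations and SDs used log2 CPM with a prior count of 0.5. Named genes were all called members, or with more than 10 calls the 5 of smallest p in each direction, or with under 3 calls the 3 of smallest p; the 5 highest and lowest per kilobase; Mrps36, Mrps30 and the Mrps18 genes; and up to 3 called genes per related list, with Tfam, Polrmt, Tufm, mt-Rnr1 and mt-Rnr2. Other genes named as called, and those with the closest or loosest correlation, were chosen after their values were seen.

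Alternatives used DESeq2 1.42.0, limma 3.58.1 (voom), DESeq2 size factors, no filter, other library sizes, terms for Rn18s-rs5 or run, left-out libraries (each library in turn with the dispersions of the full fit) and, added after the data were seen, offsets for GC content in 20 bins. The fit was tested on simulated data. No libraries agreed within sampling noise (smallest chi-square per degree of freedom 1.61). Male and female libraries of one title number did not deviate together (median r -0.000752 over 40 pairs, 4 over 0.1), so the numbers were not taken as pairs.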

Additional observations from a re-analysis of the deposited data

Results flagged for a closer look

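In groups of 10 libraries, 4 of 72 group tests over 9 gene measures had a library set far apart from the rest of its group, where chance gives about 1 in 20. Mrpl33 stood at 11.5 CPM in female gamma replicate 3, above the next highest at 8.29 CPM. Mrps18c stood at 9.68 CPM in female gamma replicate 2, above the next at 6.38 CPM. Both belong to the first run of title numbers, where these genes were higher in females. In female mixed replicate 10, Mrps27 was highest at 36.4 CPM, with the next at 29.1 CPM, and Mrpl44 was lowest at 28.7 CPM, with the next at 39.2 CPM.

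Effects that differed between sets of libraries by the test of the difference itself were the mixed effect on Mrps28 in females, 0.77 higher on the log2 scale in the second run, and the change between the runs in males minus that in females. The latter was 0.81 for Mrps18c, 0.74 for Mrpl33, 0.33 for Mrpl32, 0.31 for Mrpl30 and 0.28 for Mrps18b, and it was -0.46 for Mrpl10, -0.39 for Mrpl4, -0.38 for Mrpl2, -0.36 for Mrpl9 and -0.32 for Mrpl49. Over all genes, 1.39% were called for the difference in the female mixed effect and 26.9% for that in the change between the runs. The call of Mrps28 was lost in 10 of 20 fits that left out 1 library each, and that of Mrps18b in 28 of 80. The report gives the errors and adjusted p-values of these effects.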

How the results depend on the processing

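No treatment, mixed against gamma, or sex comparison over all libraries gained a call among the 78 genes under any fitted alternative that kept both runs, including each left-out library. With title numbers 1-20 only, the median of female mixed minus gamma was -0.0734 and that of the mixed effect in males minus females 0.26; with 21-40 only they were 0.27 (8 called) and -0.0724, and 2 genes were called between sham males and females. DESeq2 called 3 genes for the female mixed effect between the runs, against 1; leaving out a library gave 0 to 3, and 0 without female mixed replicate 10. With the log2 share of Rn18s-rs5 as a term, 3 genes were called between the runs in males, 12 in females and 2 for the difference, where Mrps18b turned to -0.0576; the cause was not tested. Leaving out 1 library gave 14 (without male gamma replicate 10) to 31 (without male gamma replicate 7) calls in males, 19 to 24 in females and 24 to 33 for the difference. With the title number as a replicate block, 26 were called for the difference, 25 of them the same genes, with Mrps18b at an adjusted p of 0.0931 and 1 gene gained, and 0 were called between sham males and females or for treatment by sex. Without libraries over 10 CPM of Myl7 the male run comparison could not be fitted. Of the values of named genes under the alternatives, 837 kept their direction and side of the threshold, 19 lost the call, 3 gained it and 1 reversed.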
